A study of Mus musculus with 8 samples.

Results

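Pou5f1, Sox2, Nanog, Sall4 and Utf1 encode core factors of the pluripotent state, and their transcripts were followed across 8 single-colour Affymetrix arrays of mouse embryonic stem cells. The platform annotation gives these 5 genes 8 probe sets of the 45037 on the array that are not controls, and every probe set annotated to a member was taken. Pou5f1, Sox2 and Nanog have 1 probe set each, Sall4 has 2 and Utf1 has 3. No probe set lists a member together with another gene. All 8 passed the filter on low values.

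There were 4 groups of 2 arrays. J1 wild-type embryonic stem cells were grown with leukemia inhibitory factor (LIF) or kept 12 hours without it, and cells of J1 origin labelled as Rex-1 knockouts were treated the same way. The extraction text gives the 12 hours without LIF for all 8 samples alike, and was read as the length of the withdrawal. All cells grew in serum medium on gelatin, without a feeder layer named in the labels. The sources used here do not state the number of knockout clones. Arrays of a group are given as biological replicates in the series description, but no label ties them to separate cultures, so p-values measure only the spread between these arrays, called first and second array within each group. For the knockout-labelled arrays without LIF, the growth description speaks of LIF in the medium, and the grouping follows the titles and treatment text instead.

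Pou5f1 encodes Oct4, a POU-domain factor that binds DNA beside Sox2, an HMG-box factor. The pair occupies composite sites in the enhancers of many embryonic stem cell genes, their own included. Nanog is a homeodomain factor that sustains self-renewal when LIF is limiting and is known to fluctuate between cells of a culture. Sall4 is a zinc finger protein that associates with Oct4 and Nanog, and Utf1 is a chromatin-associated factor whose gene is a classical Oct4 and Sox2 target. LIF acts through STAT3 and supports the same network from outside. Zfp42, the gene of Rex-1, is a downstream marker of this network.

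The sequence beside the members' starts was searched for letters that Oct4 and Sox2 recognise. RefSeq promoter windows of build GRCm38.p6, 250 bases before to 50 bases after a start, were found for 4 members, with 2 windows each for Nanog and Pou5f1 and 1 each for Sox2 and Utf1. They were searched on both strands for a composite octamer-Sox motif (TTTGCAT, any 1 base, then ACAATG), for the octamer core ATGCAAA and for the Sox core ACAATG. The composite contains both cores, so their matches overlap. The Nanog and Sox2 stretches with a match to the composite or the octamer core are shown, on the plus strand, with the match in capitals.
Nanog, chr6:122707389-122707452: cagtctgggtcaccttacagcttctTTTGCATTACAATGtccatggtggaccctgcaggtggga
Sox2, chr3:34649871-34649927: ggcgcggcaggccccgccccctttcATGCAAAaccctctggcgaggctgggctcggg
The Nanog match begins 75 bases before 1 RefSeq start and 151 bases before the other. Among all 32851 windows of 300 bases only 2 held the composite, a share of 0.00609%, and both are the overlapping Nanog windows with this same site. The search allowed only 1 free base and counted no other variant. The share is therefore no measure of how common composite sites are. The octamer core was in 4.63% of windows. In Sox2 it begins 99 bases before the start. The Sox core was in 12.6% of windows, and 1 of the 2 Pou5f1 windows held it, 158 bases before the start. The Utf1 window and the other Pou5f1 window held none of the 3 motifs, which says only that these letters are not in those windows. A match describes the letters only, and binding was not measured.

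All 11 listed embryonic stem cell markers were measured, with mean log2 signals from 11.10 for Fgf4 to 14.69 for Dppa5a, and no array fell below 10.80 for any of them. Among lineage factors, Cdx2 of the trophoblast ranged from 3.07 to 6.88, Gata4 of the endoderm from 5.74 to 7.41 and Sox1 of the neural lineage from 2.87 to 6.63. The same marker lists also hold bright genes, with mean log2 signals of 10.36 for Tfap2c (trophoblast), 10.34 for Lamb1 and 9.43 for Col4a1 (endoderm), and 10.39 for Tubb3 and 8.32 for Pax6 (neural). Zfp42 itself had log2 signals of 14.15 to 14.51 in the J1 arrays and 14.03 to 14.14 in the arrays labelled knockout, lower on all 4 knockout-labelled arrays by a margin of 0.01 at the closest (as for 1.74% of all tested probe sets), with an averaged difference of -0.21 (SE 0.16) that limma did not call (adjusted p = 0.985). The sources used here do not say where this probe set lies relative to the deletion, so it does not check the labels, and directions below refer to arrays labelled knockout. One array, the second with LIF in the knockout-labelled line, had a median signal of 143.5, against 114.2 to 128.0 on the others.

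Oct4, Sox2, Sall4 and Utf1 transcripts stayed at high signal in every group, and Nanog was the member with the widest spread among the bright probe sets. Between groups, 0 of the 8 probe sets passed in any of 7 contrasts with limma at a Benjamini-Hochberg adjusted p under 0.05, and 0 had an unadjusted p under 0.05. In the whole table, 0% of 43439 probe sets passed in each contrast, and a trended and robust prior called 1, not a member, for averaged genotype. The share of all tested probe sets with an unadjusted p under 0.05 was 5.27% for genotype averaged over LIF, 5.02% with LIF and 3.68% without LIF. It was 4.02% for LIF withdrawal averaged over both lines, 3.61% for J1 alone, 4.07% for the knockout-labelled line alone and 3.55% for the interaction. In RNA from whole cultures, fewer cells expressing a gene and less RNA per cell cannot be told apart. The intervals below say how large a change these arrays would still allow.

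**Figure D1:**
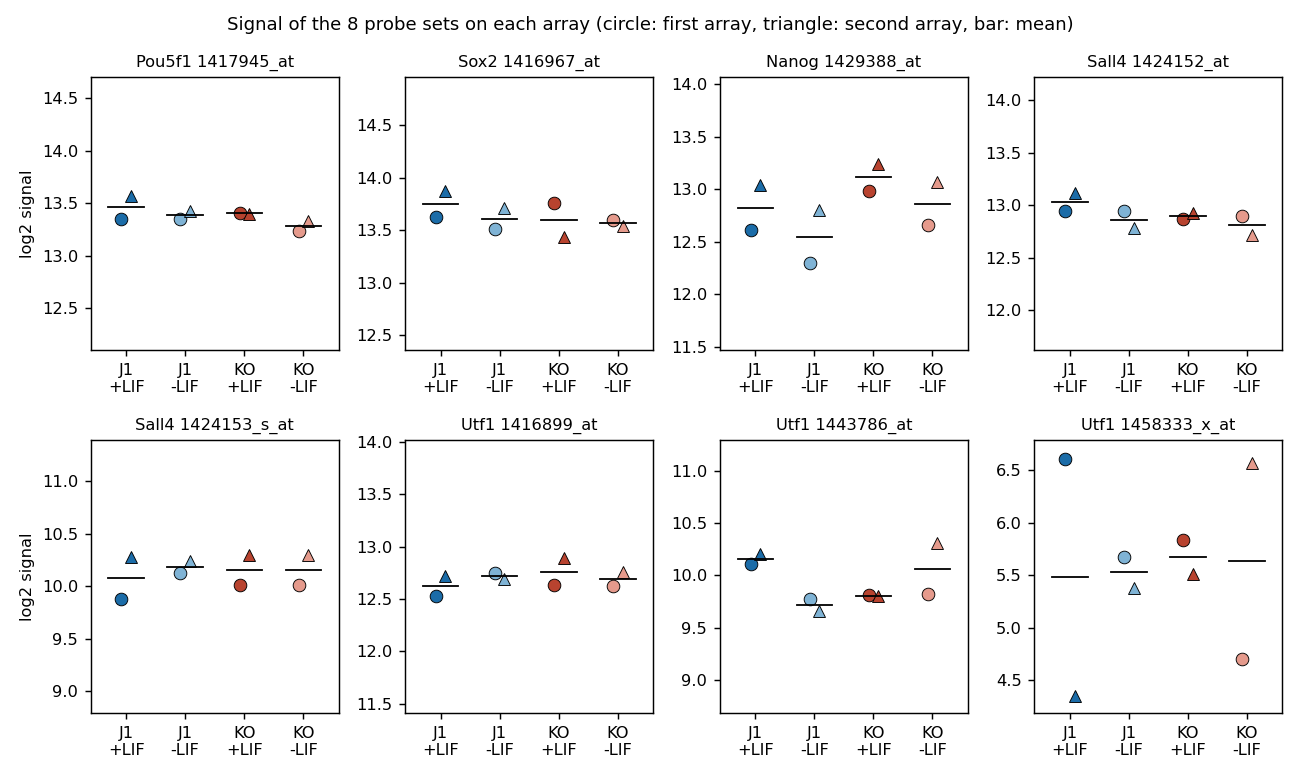
Log2 signal of the 8 probe sets on each array, in 4 groups of 2, with circles for first arrays, triangles for second arrays and a bar at the group mean; each panel spans the same number of log2 units around its own centre. Pou5f1 stays between 13.23 and 13.57, Nanog runs from 12.30 to 13.24 with the triangle above the circle in all 4 groups, and Utf1 1458333_x_at scatters from 4.35 to 6.61.

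Pou5f1 was the steadiest of the core factors. Its probe set 1417945_at gave log2 signals of 13.35 and 13.57 in J1 cells with LIF and 13.35 and 13.42 without it. In the knockout-labelled cells the signals were 13.41 and 13.40 with LIF and 13.23 and 13.33 without it. The 8 values had an SD of 0.10, and 11.2% of the 6516 probe sets whose mean log2 reached 10 varied less. The highest group mean was 13.46 ± 0.16 (SD, n = 2), for J1 with LIF, and the lowest was 13.28 ± 0.06 (SD, n = 2), for the knockout-labelled line without LIF. In the order of the 4 means only the last pair of neighbours did not overlap. Both J1 arrays without LIF were above both knockout-labelled arrays without LIF, as for 13.4% of all tested probe sets. Apart from neighbours, both knockout-labelled arrays with LIF were above both without it, as for 14.1% of all tested probe sets.

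The genotype difference averaged over LIF, knockout-labelled minus J1, was -0.08 log2 units (SE 0.15, 95% interval -0.46 to 0.30). The change on LIF withdrawal averaged over both lines was -0.10 (SE 0.15, 95% interval -0.48 to 0.28). Neither passed in limma (adjusted p = 0.994 and 1). The genotype value was -0.06 with LIF and -0.11 without it, and LIF withdrawal gave -0.08 in J1 and -0.13 in the knockout-labelled line. Leaving out the second J1 array with LIF turned the with-LIF genotype value to 0.05 and the J1 LIF value to 0.03. RefSeq lists several Pou5f1 pseudogenes, and whether the probe set also reads them was not tested.

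Sox2, the partner of Oct4 on DNA, had an SD of 0.14 over the 8 arrays, and 36% of the bright probe sets varied less. Probe set 1416967_at gave 13.63 and 13.88 in J1 cells with LIF and 13.51 and 13.71 without it. The knockout-labelled cells gave 13.76 and 13.44 with LIF and 13.60 and 13.54 without it. All neighbouring groups overlapped, and the highest mean, 13.76 ± 0.18 (SD, n = 2) for J1 with LIF, was 0.19 above the lowest, 13.57 ± 0.05 (SD, n = 2) for the knockout-labelled line without LIF. The averaged genotype difference was -0.10 (SE 0.17, 95% interval -0.53 to 0.33) and the averaged LIF change was -0.09 (SE 0.17, 95% interval -0.52 to 0.34), neither of which limma called (adjusted p = 0.994 and 1).

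The sign of the Sox2 genotype difference was not the same in first and second arrays. Knockout-labelled minus J1, the first arrays gave 0.13 with LIF and 0.09 without it, whereas the second arrays gave -0.44 and -0.18. The with-LIF value over both arrays was -0.16 (SE 0.25) and became 0.002 without the second knockout-labelled array, the array of high median signal. Without LIF it was -0.04 (SE 0.25), and 0.06 without the second J1 array. LIF withdrawal gave -0.14 (SE 0.25) in J1. It gave -0.03 (SE 0.25) in the knockout-labelled line, which became 0.13 without its first array with LIF and 0.004 without its second array lacking LIF. With quantile normalization the knockout LIF value was 0.07 and the without-LIF genotype value 0.03. No direction for Sox2 between the lines could therefore be given.

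Nanog had the largest group differences of the bright member probe sets. Its SD over the 8 arrays was 0.31, and 88.2% of the bright probe sets varied less. Probe set 1429388_at gave log2 signals of 12.61 and 13.04 in J1 cells with LIF and 12.30 and 12.80 without it. The knockout-labelled arrays gave 12.99 and 13.24 with LIF and 12.66 and 13.07 without it. The highest group mean was 13.12 ± 0.18 (SD, n = 2) in the knockout-labelled cells with LIF. It was followed by 12.86 ± 0.29 without LIF, 12.83 ± 0.31 in J1 cells with LIF and 12.55 ± 0.36 in J1 cells without LIF (SD, n = 2 each). All neighbours in this order overlapped, and the ends were 0.57 apart. As linear signal these means were 8925 ± 1097, 7525 ± 1490, 7352 ± 1550 and 6094 ± 1498 (SD, n = 2 each) in the same order.

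The averaged genotype difference of Nanog was 0.30 (SE 0.22, 95% interval -0.26 to 0.86), which limma did not call (adjusted p = 0.985). The averaged LIF change was -0.27 (SE 0.22, 95% interval -0.82 to 0.29), also not called (adjusted p = 1). The genotype value was 0.29 with LIF and 0.31 without it, and the LIF value was -0.28 in J1 cells and -0.26 in the knockout-labelled cells, so the interaction was 0.02 (SE 0.45). With 1 array left out, the genotype value with LIF was 0.07 without the first J1 array, 0.16 without the second knockout-labelled array and 0.51 without the second J1 array. In cells lacking LIF, leaving arrays out gave 0.06 without the first J1 array, 0.11 without the second knockout-labelled array, 0.52 without the first knockout-labelled array and 0.57 without the second J1 array. The J1 LIF value was -0.02 or -0.53 without the first or second array lacking LIF, and -0.49 or -0.06 without the first or second array with it. The sign of each value was kept, and its size depended on single arrays. For LIF in the knockout-labelled line the value was -0.05 or -0.46 without the first or second array lacking LIF, and -0.13 without the second array with it. Leaving out 1 array lowered the averaged genotype value to 0.17 without the first J1 array lacking LIF, 0.19 without the first J1 array with LIF and 0.20 without the second knockout-labelled array lacking LIF. The averaged LIF value moved by over 1.5 times with 3 arrays left out in turn, to -0.14 without the first J1 array lacking LIF, -0.16 without the second J1 array with LIF and -0.16 without the first knockout-labelled array lacking LIF. None of these changed its sign.

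In every group Nanog was higher on the second array than on the first. The difference was 0.43 in J1 cells with LIF, 0.51 in J1 cells without it, 0.25 in the knockout-labelled cells with LIF and 0.41 in those without it. Over the 6516 bright probe sets the median size of this difference was 0.18 to 0.23 in the 4 groups, and 27.4% of them were higher on the second array in all 4 groups, so this shared direction was common. When first arrays were set against first arrays, the knockout-labelled cells were higher by 0.38 with LIF and 0.36 without it. Among second arrays the values were 0.20 and 0.26. LIF withdrawal gave -0.31 and -0.24 in the first and second J1 arrays and -0.33 and -0.18 in the knockout-labelled ones. Among the same bright probe sets, 10.1% had the knockout-labelled array higher in all 4 such comparisons and 10.8% had the array without LIF lower in all 4.

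Fibroblast or feeder markers also differed between first and second arrays, in the opposite direction in all 4 groups. The mean log2 of the 14 measured of 15 listed came to 7.79 and 7.77 for J1 on the first arrays and 6.73 and 6.33 on the second ones. For the knockout-labelled line it was 7.11 and 7.04 in the first arrays and 6.70 and 6.74 in the second. Primitive endoderm markers (13 of 13 measured) differed in the same direction as Nanog. Their means on the first and second arrays were 6.88 and 7.18 in J1 with LIF and 7.0 and 7.08 in J1 without it. In the knockout-labelled line they were 7.09 and 7.63 with LIF, and 6.92 and 7.41 without it. The whole table also leaned this way. Over the 43439 tested probe sets the median second-minus-first difference was 0.05 and 0.06 in J1 with and without LIF. It was 0.14 and 0.05 in the knockout-labelled line, and the median size of the difference was 0.41 to 0.55 in the 4 groups. Means of the trophoblast, neural and mesoderm markers kept no shared direction over the 4 groups. The neural ones, for example, were 6.6 and 7.24 on the first and second J1 arrays with LIF and 7.0 and 6.8 without it. The part of any of these cell types in the Nanog values was not tested. Col1a1, a fibroblast collagen, ranged from 4.24 to 8.95. The same list also holds bright genes, with mean log2 signals of 12.37 for Vim and 10.61 for Acta2.

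**Figure D2:**
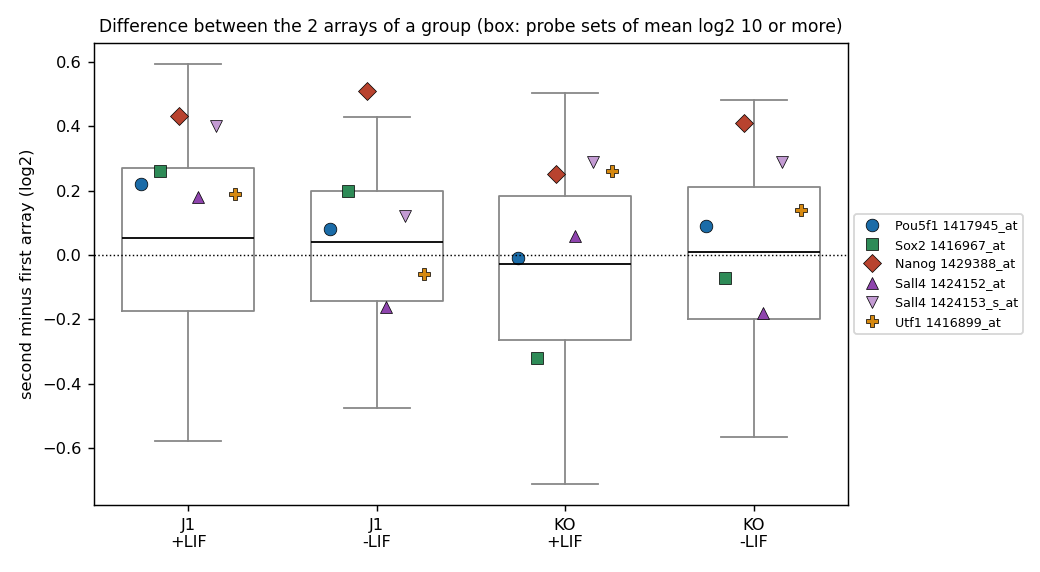
Second minus first array, in log2 units, for the 6 bright member probe sets (mean log2 10 or more), beside boxes of all 6516 such probe sets (box: middle quartiles, line: median, whiskers: 5th to 95th percentile) in each of the 4 groups. Nanog lies at 0.25 to 0.51 above 0 in every group, Sall4 1424153_s_at at 0.12 to 0.40, and Sox2 lies on both sides of 0.

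Sall4 was read by a pair of probe sets that the annotation derives from the same source sequence. Probe set 1424152_at gave 12.94 and 13.12 in J1 cells with LIF, 12.94 and 12.78 without it, 12.87 and 12.93 in the knockout-labelled cells with LIF, and 12.90 and 12.72 without it. The SD over the 8 arrays was 0.12, with 21.6% of the bright probe sets varying less. Both J1 arrays with LIF were above both knockout-labelled arrays with LIF, a pattern that 14.5% of all tested probe sets showed in the same direction. The averaged genotype difference was -0.09 (SE 0.16, 95% interval -0.48 to 0.30) and the averaged LIF change was -0.13 (SE 0.16, 95% interval -0.52 to 0.26).

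Probe set 1424153_s_at, whose suffix marks probes that can match several transcripts, was dimmer, at 9.88 to 10.30. The second array was higher by 0.40 and 0.12 in J1 cells with and without LIF and by 0.29 in both knockout-labelled groups. Its averaged differences were 0.02 (SE 0.19) for genotype and 0.05 (SE 0.19) for LIF, opposite in sign to the other Sall4 probe set in both comparisons. All neighbouring groups overlapped, with at most 0.10 between group means. The SD over the 8 arrays was 0.16, with 44.4% of the bright probe sets varying less. With each array centred on its median the genotype values of the pair were -0.17 and -0.06 and the LIF values -0.08 and 0.10, so the opposite signs by genotype depend on the scaling. No RefSeq promoter window was matched for Sall4.

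Utf1 was read by 3 probe sets whose patterns differed. Probe set 1416899_at, the brightest, gave 12.53 and 12.72 in J1 cells with LIF, 12.75 and 12.69 without it, 12.63 and 12.89 in the knockout-labelled cells with LIF, and 12.62 and 12.76 without it. Neighbouring groups all overlapped, and the SD over the 8 arrays was 0.11, with 16.5% of the bright probe sets varying less. The averaged genotype difference was 0.05 (SE 0.16, 95% interval -0.35 to 0.46), which was -0.02 with each array centred on its median. The averaged LIF change was 0.01 (SE 0.16, 95% interval -0.40 to 0.41).

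Probe set 1443786_at, also annotated to Utf1, had LIF values of opposite sign in the 2 lines. In J1 cells it gave 10.11 and 10.20 with LIF and 9.78 and 9.66 without it, so the arrays without LIF were lower. The knockout-labelled line gave 9.81 and 9.80 with LIF and 9.82 and 10.31 without it, so the arrays without LIF were higher, the first of them by only 0.01. The LIF value was -0.43 (SE 0.25) for J1 and 0.26 (SE 0.25) for the other line. Their difference, the interaction, was 0.69 (SE 0.36, 95% interval -0.20 to 1.58), with an unadjusted p = 0.107 and adjusted p = 1 in limma. Without the second knockout-labelled array lacking LIF the interaction was 0.44 and the knockout LIF change 0.02. Opposite LIF changes without overlap occurred in 3.43% of all tested probe sets. By genotype, this probe set was lower in the knockout-labelled cells with LIF (-0.35, SE 0.25) and higher without it (0.34, SE 0.25), again without overlap and not called. All tested probe sets showed such non-overlap in 14.5% (lower, with LIF) and 15.9% (higher, without LIF), and the value without LIF was 0.10 when the second knockout-labelled array was left out.

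Probe set 1458333_x_at, whose suffix marks probes that may bind unrelated transcripts, lay at 4.35 to 6.61, and the arrays of a group differed by up to 2.26. Its averaged differences of 0.15 (SE 0.64) for genotype and 0.00 (SE 0.64) for LIF had intervals of -1.44 to 1.73 and -1.58 to 1.59, so it bounds little.

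In the 4 contrasts between groups of 2 arrays, the member probe sets whose groups did not overlap were counted. Of the 8, 2 were lower and 0 higher in the knockout-labelled cells with LIF, against 14.5% and 15.5% of all tested probe sets. Without LIF, 1 was lower and 1 higher, against 13.4% and 15.9%. For LIF withdrawal, 1 was lower and 0 higher in J1 cells, against 14.4% and 13.2%, and 1 was lower and 1 higher in the knockout-labelled cells, against 14.1% and 13.5%. When all 4 arrays of each side were compared, 0 member probe sets separated the genotypes or the LIF conditions, against 2.1% higher and 1.74% lower by genotype and 1.02% higher and 1.33% lower by LIF in the whole table. Beside these shares, counts of 0 to 2 among 8 were not read as a result about the members.

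**Figure D3:**
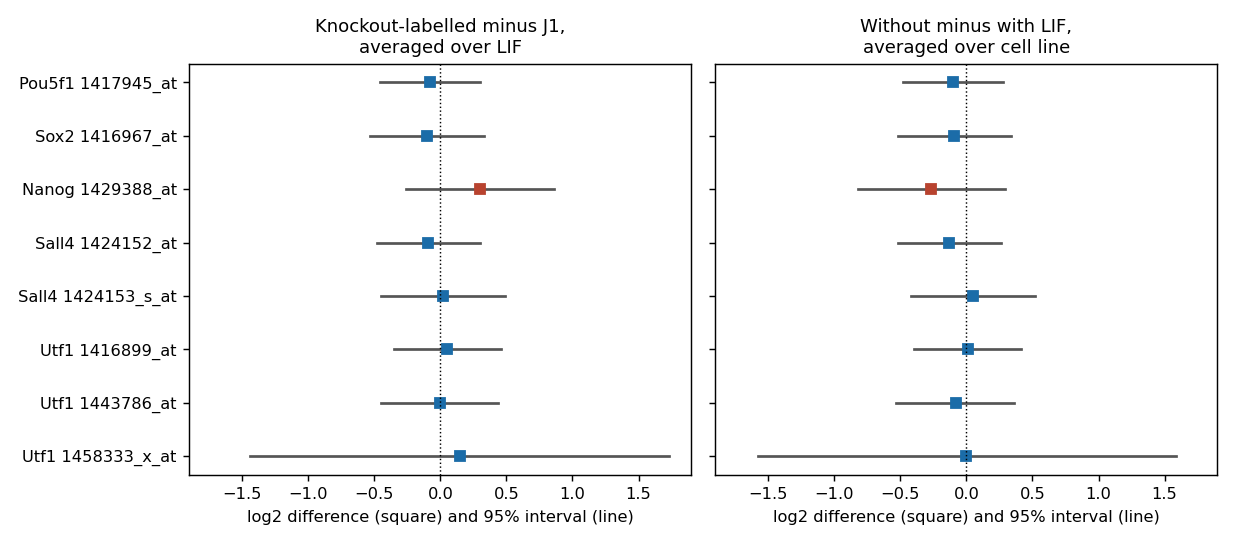
Log2 difference (square) and 95% interval from limma (line) of the 8 probe sets, for knockout-labelled minus J1 averaged over LIF (left) and without minus with LIF averaged over cell line (right). Every interval includes 0; Nanog, drawn in red, has the values 0.30 and -0.27, and Utf1 1458333_x_at has the widest intervals.

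Genes known to be bound and driven by Oct4 and Sox2 were examined as a list of 30, of which 28 were measured and 23 were not members themselves. By genotype, 0 of the 23 passed in limma and 1 had an unadjusted p under 0.05, beside 5.27% of all tested probe sets. Of the 23, 11 were above 0 and 12 below, and the median difference was close to 0, beside 0.01 over 17836 genes. Tbx3, a T-box factor of the naive state, had log2 signals of 9.86 and 9.51 in J1 cells with LIF and 9.46 and 9.02 without it. Tbx3 in the knockout-labelled line gave 10.33 and 10.50 with LIF and 10.09 and 10.41 without it. All 4 knockout-labelled arrays were thus above all 4 J1 arrays, as for 2.1% of all tested probe sets, and the averaged difference of 0.87 (SE 0.20) was not called (adjusted p = 0.794, unadjusted p = 0.00577). Lin28a, an RNA-binding protein that blocks let-7 maturation, ranged from 11.73 to 12.16 on the J1 arrays and from 11.42 to 11.71 on the knockout-labelled ones. All 4 knockout-labelled arrays were thus below all 4 J1 arrays, as for 1.74% of all tested probe sets. The difference of -0.41 (SE 0.19) was not called in limma (adjusted p = 0.978). Tbx3 and Lin28a were named for the smallest p of the list in this contrast, which favours such separation. Over the whole list of 23, 1 was higher and 2 were lower without overlap.

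For LIF withdrawal, 0 of the 23 passed in limma and 3, all lower, had an unadjusted p under 0.05. The share of all tested probe sets was 4.02%. Of the 23, 11 were above 0 and 12 below, and the median change was -0.08, beside -0.01 over all genes. Klf4, a Kruppel-like factor downstream of STAT3, gave 12.28 and 11.79 with LIF and 11.23 and 10.55 without it in J1 cells. In the other line Klf4 gave 11.78 and 12.09 with LIF and 11.51 and 11.26 without it. Its averaged value was -0.85 (SE 0.24), and Tdgf1, the Nodal co-receptor Cripto, had -0.50 (SE 0.16). Neither passed in limma (adjusted p = 1 for both). In both genes all 4 arrays without LIF were below all 4 with it, as for 1.33% of all tested probe sets. Both were named for the smallest p of the list in this contrast, which favours such separation. Over the whole list of 23, 3 were lower and 1 higher without overlap, against 1.33% and 1.02% of all tested probe sets. The 5 members, at -0.27 to 0.01 for the brightest probe set of each, lay inside the range of this list, which ran from -0.85 to 0.42.

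Proteins that associate with Oct4, Sox2 or Nanog formed a list of 34, with 33 measured and 32 that were not members. It includes subunits of the NuRD deacetylase and of the BAF remodelling complex. By genotype 0 passed in limma and 0 had an unadjusted p under 0.05, 10 were above 0 and 22 below, with a median of -0.07 and a range of -0.33 to 0.35, beside 48.1% of all genes below 0. For LIF, 0 passed in limma and 2, both lower, had an unadjusted p under 0.05, beside 4.02% of all tested probe sets. Of the list, 19 were above 0 and 13 below, with a median of 0.02. Esrrb, an orphan nuclear receptor that binds with Oct4, had 0.35 (SE 0.17) for genotype and -0.42 (SE 0.17) for LIF. Esrrb is also on the list of target genes, and is among the 3 counted as lower there by LIF. Nr0b1 and Rif1 are on both lists as well. Arid1a, a BAF subunit, had -0.33 (SE 0.18) for genotype, and Tfcp2l1, a naive-state factor, had -0.46 (SE 0.16) for LIF. For Esrrb, the arrays with LIF gave 11.31 and 11.40 in J1 cells and 11.54 and 11.83 in the knockout-labelled cells, and those without LIF gave 11.04, 10.80, 11.29 and 11.28 in the same order. All of its arrays without LIF thus lay below all with LIF, by 0.02 at the closest, again as for 1.33% of all tested probe sets. Neither Esrrb value was called in limma (adjusted p = 0.978 and 1). Esrrb too was named for its small p, and by LIF 2 of the 32 were lower and 0 higher without overlap.

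Relatives of the members by protein family, other POU, Sox, Sall and homeodomain genes, gave 21 measured of 24. Most lay at low signal, with list means of 6.66 to 7.30 per array. By genotype 0 passed in limma and 1 had an unadjusted p under 0.05, beside 5.27% of all tested probe sets. Of the 21, 8 were above 0 and 13 below, with a median of -0.21. For LIF 0 passed in limma and 1 had an unadjusted p under 0.05, beside 4.02% of all tested probe sets. Of the 21, 12 were above 0 and 9 below, with a median of 0.05. Pou3f2, a neural POU factor, had -0.93 (SE 0.26) for genotype and 0.74 (SE 0.26) for LIF at a mean log2 of only 5.84. Sox21 had 0.52 (SE 0.24) for genotype, and Sall2 had 0.58 (SE 0.24) for LIF, with 7.48 and 7.50 on the J1 arrays with LIF, 8.44 and 8.38 on those without it, and 6.98 and 7.80 with LIF and 7.79 and 7.48 without it in the knockout-labelled line.

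**Figure D4:**
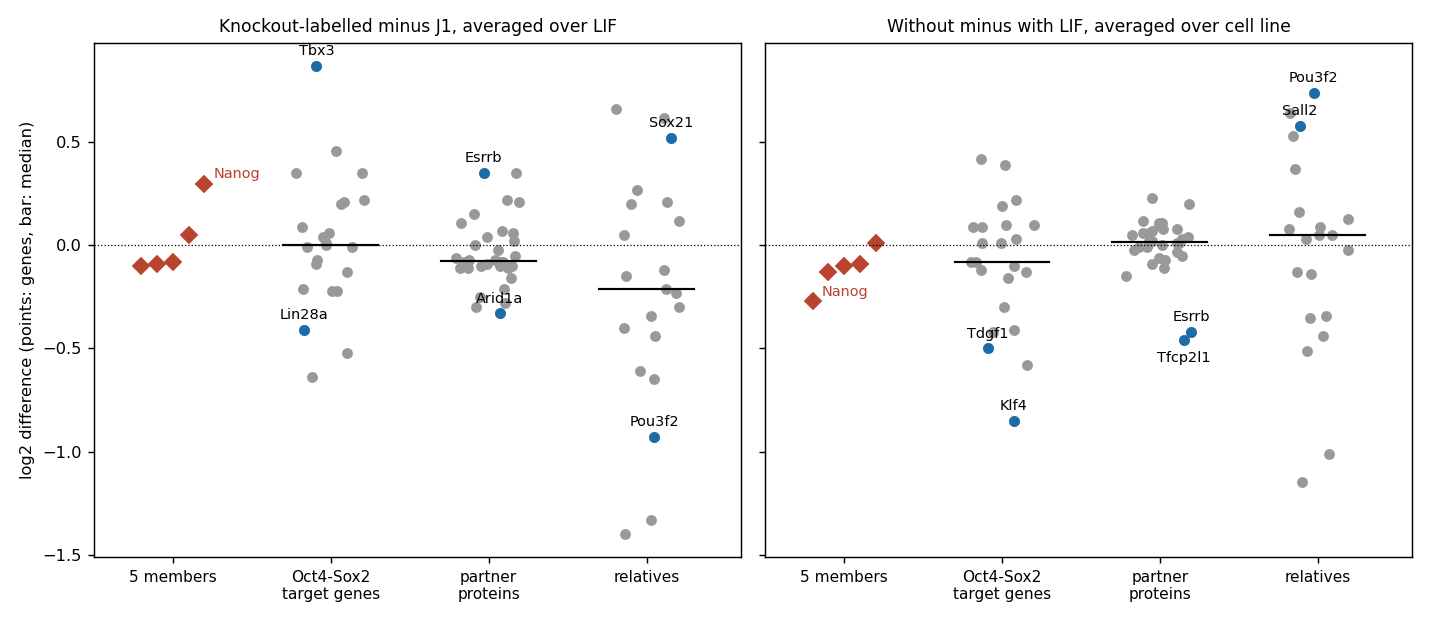
Log2 differences by genotype (left) and by LIF (right) of the 5 members (probe set of highest mean, red diamonds) and of the genes of the 3 lists (points) with each list's median (bar); named genes are in blue. The members span -0.10 to 0.30 by genotype and -0.27 to 0.01 by LIF, within the spread of the target genes, and the same 8 arrays underlie both panels.

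Markers of other lineages were compared as counts. By genotype, 0 of 10 trophoblast, 13 primitive endoderm, 10 neural, 10 mesoderm and 14 fibroblast or feeder markers passed in limma, with medians of 0.02, 0.20, -0.49, 0.27 and -0.35. Those with an unadjusted p under 0.05 in limma numbered 0, 2, 3, 1 and 0 in the same order, beside 5.27% of all tested probe sets. The 2 endoderm markers and the 1 mesoderm marker were higher in the knockout-labelled cells, and the 3 neural markers were lower. For LIF, 0 passed in any list. At an unadjusted p under 0.05 in limma were 1 endoderm and 1 neural marker, both lower without LIF. The share of all tested probe sets was 4.02%. The medians were -0.11, -0.02, -0.13, -0.21 and -0.17.

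The genes whose 8 values ran most like each member's were found among 13637 probe sets of other genes (13636 for Sall4 and Utf1) whose mean log2 reached 8. Since each was taken as the highest of that many, the Pearson r is a description with no p, and the arrays share their scaling and the difference between first and second arrays. For Pou5f1 they were Ptrhd1 (r = 0.978) and Wdr74 (r = 0.970), a ribosome biogenesis factor. For Sox2 they were Cct2 (r = 0.977), a chaperonin subunit, and Odc1 (r = 0.959), the first enzyme of polyamine synthesis. For Nanog they were Tmem201 (r = 0.985), an inner nuclear membrane protein, and Fcgr2b (r = 0.979), an inhibitory Fc receptor. For Sall4 they were Patz1 (r = 0.969) and Pdcd2l (r = 0.965), and for Utf1 Tmed9 (r = 0.986) and Gtf2h5 (r = 0.960), a subunit of TFIIH. No member was among the genes most like another member: between members, r over the 8 arrays ran from -0.434 for Sox2 with Utf1 to 0.659 for Pou5f1 with Sox2.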

How the data were processed

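Signals of 8 Affymetrix arrays, 2 per group, were used as deposited: linear intensity values, 1 per probe set and array. GCRMA appears in the submitters' processing notes without a version or a stated use. Every deposited column averages 500 after the lowest and highest 2% of probe sets are trimmed, and how the authors reached that scale is not stated in what was used here. With no detection calls, low signal holds an unknown share of background, and the number of arrays limits the precision.

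Of 45101 probe sets, 64 controls were left out. Gene symbols are those of the platform annotation, compared through Entrez identifiers with a RefSeq table of GRCm38.p6 (0 changed); 34945 probe sets have 1 symbol, 932 several and 9160 none. Probe sets reaching a log2 of 4 on 2 or more arrays (43439) entered limma 3.58.1 in R 4.3.3, with no pseudocount, 1 mean per group over all 8 arrays, eBayes without a trend, no block, Benjamini-Hochberg adjustment over all of them and a threshold of 0.05. SE and 95% intervals come from this model, which was tested on simulated data. The simulated noise was independent between arrays, so that run says nothing about a shift shared by the second arrays. Each gene of a list stands for its probe set of highest mean.

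Members and lists were chosen with earlier results of these data known. The genes named from a list are the 2 of smallest unadjusted p in each averaged contrast, since none was called, and the 2 probe sets most like each member are named. Cdx2, Gata4, Sox1 and Col1a1, and the bright markers beside them, were picked from the marker lists after their values were seen. Plots were made in matplotlib 3.10.9 under Python 3.11.15. The alternatives covered the filter, normalization, pseudocount, variance prior, arrays in the model, block, threshold, probe sets per gene and leaving out each array.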

Additional observations from a re-analysis of the deposited data

Results flagged for a closer look

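Utf1 probe set 1443786_at was flagged because its LIF change ran in opposite directions in the 2 lines. The arrays with and without LIF did not overlap in either line, a pattern that 3.43% of all tested probe sets showed. The difference between the LIF changes, knockout-labelled minus J1, was 0.69 log2 units (SE 0.36), and limma's interaction test did not call it (adjusted p = 1). In the knockout-labelled cells the separation rested on 0.01 log2 units between the first arrays, and the Utf1 probe set 1416899_at did not share the pattern, with an interaction of -0.17 (SE 0.33). With 2 arrays per group, no single array could be checked as an outlier.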

How the results depend on the processing

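Of 266 member differences recomputed under settings other than leaving out an array, 8 changed sign and 0 were called (smallest adjusted p = 0.707); of 288 with an array left out, 35 changed sign and 0 were called (smallest 0.752). These cover every contrast for Pou5f1, Sox2, Nanog and Utf1 1443786_at. For both Sall4 probe sets, Utf1 1416899_at and Utf1 1458333_x_at they cover only averaged genotype and averaged LIF. Other contrasts of those probe sets are not included, and some may also change sign. The cause of each sign change was not tested. With quantile normalization the values became 0.03 (Sox2, genotype without LIF), 0.07 (Sox2, LIF in the knockout-labelled cells), 0.02 (Utf1 1443786_at, averaged genotype) and 0.02 (Pou5f1, interaction). With arrays centred on their median they became -0.06 (Sall4 1424153_s_at) and -0.02 (Utf1 1416899_at) for averaged genotype and 0.03 (Sox2, LIF in the knockout-labelled cells), and with 16 added before log2 -0.01 (Utf1 1458333_x_at, averaged LIF). Nanog kept the sign of its 6 genotype and LIF values in every setting run. The count of called probe sets stayed at 0 in every contrast and setting, except that a trended and robust prior called 1 for averaged genotype, a probe set with no gene symbol listed here (1.39, SE 0.14, adjusted p = 0.0471 in limma). The second array of each group has a letter r added to its title. No label says that it pairs arrays across groups, so it was not taken as pairing. Second-minus-first values correlated at 0.0496 to 0.198 between groups over all 43439 tested probe sets, under 0.1 for 2 of 6 pairs of groups. Dim probe sets are included there, and 27.4% of the 6516 bright ones were higher on the second array in all 4 groups. The correlations therefore do not decide whether the arrays pair. A replicate block built on the titles' letter r left the counts at 0 and gave Nanog 0.30 (SE 0.13, adjusted p = 0.707) for genotype and -0.27 (SE 0.13, adjusted p = 0.940) for LIF. A mean over all probe sets of a gene moved Sall4 from -0.09 to -0.03 for genotype and from -0.13 to -0.04 for LIF, and Utf1 from 0.05 to 0.07 and from 0.01 to -0.02. For Utf1 it also turned the sign of the 4 contrasts between 2 groups, from 0.14 to -0.01 and -0.03 to 0.14 for genotype with and without LIF, and from 0.09 to -0.10 and -0.07 to 0.05 for LIF in J1 and in the knockout-labelled line.

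Ranges over arrays left out, for values that changed sign among the recomputed ones, were as follows. The Sall4 probe sets, Utf1 1416899_at and Utf1 1458333_x_at enter only with averaged genotype and averaged LIF. For genotype with LIF, Pou5f1 had -0.17 to 0.05 and Sox2 -0.31 to 0.002; without LIF, Sox2 had -0.14 to 0.06. For averaged genotype, Sall4 1424153_s_at had -0.08 to 0.12, Utf1 1416899_at -0.01 to 0.12, Utf1 1443786_at -0.13 to 0.12 and Utf1 1458333_x_at -0.42 to 0.71. For LIF in J1 cells, Pou5f1 had -0.19 to 0.03, and in the knockout-labelled cells Sox2 had -0.19 to 0.13. For averaged LIF, Sall4 1424153_s_at had -0.05 to 0.15, Utf1 1416899_at -0.06 to 0.07, Utf1 1443786_at -0.21 to 0.04 and Utf1 1458333_x_at -0.56 to 0.57. For the interaction, Pou5f1 had -0.16 to 0.06, Sox2 -0.05 to 0.27 and Nanog -0.23 to 0.27.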
